A study of Homo sapiens with 29 samples.

Results

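Wnt signalling reaches its target genes through a small set of proteins, and the transcripts of 8 of them were followed here in tumors treated with a helicon peptide directed at the β-catenin/TCF interaction. They are CTNNB1, which encodes β-catenin, the 4 TCF/LEF genes TCF7, TCF7L1, TCF7L2 and LEF1, and the coactivators BCL9, BCL9L and PYGO2. The genes were chosen by symbol, and all 8 were among the 13492 genes measured. Every one of them passed the filter on low values (at least 1 CPM in at least 5 libraries), which left 13373 genes in the tests.

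The tumors were xenografts of COLO320DM, a human line labelled colorectal adenocarcinoma, grown in mice whose strain and age are not given in the labels. Treatment began at an average tumor size of about 300 mm3. Every library was labelled 48 h. The groups were vehicle (n = 10), Helicon4neg at 30 mpk (n = 8), Helicon4 at 30 mpk (n = 6) and Helicon4 at 100 mpk (n = 5), with the dose unit spelled as in the labels. Helicon4 is the peptide and Helicon4neg, going by its label, a negative control, which was given at the lower dose only. The xenografts derive from a single cell line, and they hold mouse tissue as well as the human tumor cells. Nothing in the labels says how reads from the mouse were handled.

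The labels number the replicates without saying that they are separate animals, so the p-values measure the spread between these libraries. Depth was 26796067 to 61579797 reads a library, and the number of reads on a member ran from 21 to 58 for TCF7L1 up to 5322 to 19969 for CTNNB1. Replicate 2 of Helicon4neg stood apart from the other libraries. Its values fell with gene length (slope of log2 value on log2 length -0.321), replicate 6 of the vehicle followed at -0.186, and the other 27 lay between -0.135 and 0.121. Both set the end of several ranges given below and are named at some of them. Library titles also carry codes whose meaning is not stated, and no code holds vehicle and Helicon4 libraries together.

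β-catenin has a structural role at cell junctions, where it ties cadherins to α-catenin, and another role in the nucleus. In the absence of a Wnt signal a destruction complex built on APC and AXIN marks it for degradation. When that complex fails, as it does in most colorectal cancers, β-catenin accumulates and binds TCF/LEF proteins, which sit on DNA and otherwise recruit TLE corepressors. BCL9 and BCL9L bind β-catenin and link it to PYGO proteins, which read methylated histone H3. β-catenin is controlled mainly as a protein, so a transcript level is not a measure of how active the pathway is.

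Values are in CPM, the usual measure of counts relative to library size, scaled by the authors. Fold changes are differences of log2(CPM + 1) from limma fitted to all 13373 genes in 4 groups, given with their standard error (SE). The added 1 shrinks the differences and their SE at low levels, most of all where a level is near or below 1 CPM. A gene was called at a two-sided Benjamini-Hochberg adjusted p under 0.05 over all genes. The plot of CPM by library shows all values.

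**Figure D1:**
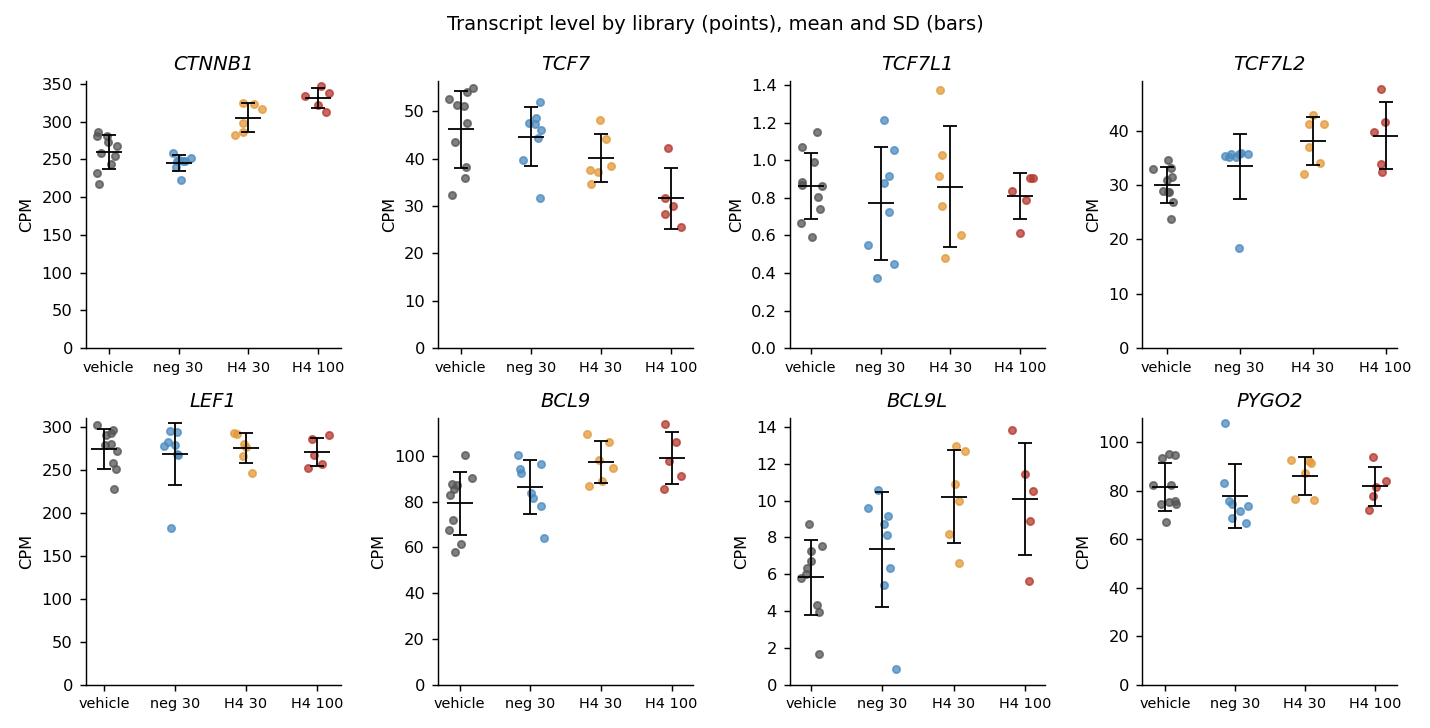
CPM of the 8 genes (vertical axes, each from 0) in the 29 libraries, by group; neg 30 is Helicon4neg at 30 mpk, H4 30 and H4 100 are Helicon4 at 30 and 100 mpk. Points are libraries and bars the mean and SD; CTNNB1 was higher in all 5 libraries at 100 mpk than in any vehicle library, and the lowest point of LEF1, TCF7L2 and BCL9L is Helicon4neg replicate 2.

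CTNNB1 (ENSG00000168036, chr3:41194741-41260096 on the plus strand, GRCh38 as annotated in GENCODE 29) was called in 4 of the 6 comparisons: its transcript was higher with Helicon4 at either dose than with vehicle or with Helicon4neg. The vehicle libraries ran from 218 CPM through a median of 263 to 287. Helicon4neg ranged from 223 to 259 with a median of 248. At 30 mpk of Helicon4 the lowest value was 282, the median 308 and the highest 325. The 5 libraries at 100 mpk held 338, 347, 323, 313 and 333 CPM.

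All 5 libraries at 100 mpk lay above every vehicle and every Helicon4neg library, and the 6 at 30 mpk lay above every Helicon4neg library but overlapped the vehicle range. Group means were 259.7 ± 22.7 CPM with vehicle (SD, n = 10) and 246 ± 10.5 with Helicon4neg (SD, n = 8), 305 ± 18.7 at 30 mpk (SD, n = 6) and 331 ± 13.3 at 100 mpk (SD, n = 5). The log2 difference from vehicle was 0.35 (SE 0.064, limma adjusted p = 8.8e-05) at 100 mpk and 0.24 (SE 0.060, adjusted p = 0.0079) at 30 mpk. Against Helicon4neg at the same dose of 30 mpk it was 0.31 (SE 0.063, adjusted p = 7.1e-04). The step from 30 to 100 mpk, 0.12 with 95% limits of -0.027 and 0.26, did not pass (limma adjusted p = 0.41). Helicon4neg itself differed from vehicle by -0.075 (95% limits -0.19 and 0.038, adjusted p = 0.49).

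The code in the library titles bears on this result. Within the code shared by 3 Helicon4neg libraries and 1 Helicon4 library at 30 mpk, CTNNB1 was at 248 to 259 CPM in the former and 323 CPM in the latter. Within the code shared by 1 library at 30 mpk and 4 at 100 mpk, it was 325 CPM against 313 to 347. Fitted with the code as a block, which multiplied the median SE of the members by 3.30 in the comparison of 100 mpk with vehicle, the difference kept its sign at 0.21 and lost its call (limma adjusted p = 0.81). At 30 mpk against vehicle it became 0.19 (adjusted p = 0.99), and at 30 mpk against Helicon4neg 0.35 (adjusted p = 0.38). No code gives a value for Helicon4 against vehicle within itself, so for that contrast code and treatment cannot be told apart library by library.

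The 4 TCF/LEF genes did not move together. TCF7 fell at 100 mpk, TCF7L2 rose, LEF1 had nearly the same level in the 4 groups, and TCF7L1 was close to the limit of detection. TCF7, which encodes TCF-1 and is itself known as a Wnt target in the intestine, lies at chr5:134114711-134151865 (ENSG00000081059, plus strand). Vehicle libraries held 32.3 to 54.9 CPM (median 49.3) and Helicon4neg libraries 31.7 to 51.9 (median 46.6). At 30 mpk TCF7 was at 34.6 to 48.2 CPM (median 38.1). At 100 mpk the 5 libraries held 28.4, 25.6, 31.7, 30.0 and 42.2 CPM.

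Among the vehicle libraries TCF7 was lowest in replicate 6, which stands apart, at 32.3 CPM. In 4 of the 5 libraries at 100 mpk, which share a title code, it was under that value. Replicate 5, at 42.2 CPM and the only library at 100 mpk with another code, lay inside the vehicle range. The mean was 31.6 ± 6.35 CPM at 100 mpk (SD, n = 5) against 46.1 ± 8.18 with vehicle (SD, n = 10). The log2 difference was -0.53 (SE 0.13, limma adjusted p = 0.0019) against vehicle and -0.49 (SE 0.13, adjusted p = 0.0045) against Helicon4neg, which was given at a lower dose. At 30 mpk the difference from vehicle was -0.19 (SE 0.12, limma adjusted p = 0.33), which became -0.33 and passed with the length slope as a covariate (adjusted p = 0.012), and that from Helicon4neg at the same dose was -0.15 (95% limits -0.40 and 0.11). From 30 to 100 mpk it was -0.34 (SE 0.14, limma adjusted p = 0.19). Within the title code shared by these doses, the 30 mpk library held 44.2 CPM and the 4 libraries at 100 mpk 25.6 to 31.7. Blocking on the code gave -1.10 at 100 mpk from vehicle (adjusted p = 0.33) and -0.88 from Helicon4neg (adjusted p = 0.40).

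TCF7 and TCF7L2 each have more than one annotated start, and internal starts can give proteins that lack the β-catenin binding region at the amino end. Gene-level values add all of these up: GENCODE 29 lists 14 protein-coding transcripts of TCF7 and 21 of TCF7L2. RefSeq promoter windows of 300 bases (GRCh38.p14, 250 before to 50 after a start) were found for 7 of the 8 members and searched on both strands for 4 forms of the TCF/LEF heptamer, namely CTTTGAA, the variant CTTTGAT, the variant CTTTGTA and the variant CTTTGTT. A match was found at an internal start of TCF7 and at one of TCF7L2, and in no other window of the members. Both stretches lie within introns and are shown because they belong to the TCF/LEF genes whose levels changed, with the match in capitals.
TCF7, chr5:134123542-134123601, plus strand, 50 bases before the start at the first base of the match: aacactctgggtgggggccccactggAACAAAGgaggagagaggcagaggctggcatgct
TCF7L2, chr10:113126474-113126533, plus strand, 133 bases before the start at the first base of the match: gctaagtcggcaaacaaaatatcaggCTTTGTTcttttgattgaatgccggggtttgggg
In TCF7 the heptamer is on the minus strand and so reads as its reverse complement. Of all 35116 promoter windows, 13.8% hold at least 1 of these heptamers, and the libraries do not show which start was used.

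TCF7L2 encodes TCF-4, the family member most studied in intestinal crypts (ENSG00000148737, chr10:112950250-113167678, plus strand). It ranged from 23.8 to 34.6 CPM with vehicle (median 29.9). Of the 8 Helicon4neg libraries 7 lay between 35.2 and 35.9 CPM, and replicate 2 was at 18.5. At 30 mpk of Helicon4 the values were 32.1 to 42.8 (median 39.1), and at 100 mpk 32.4, 47.7, 33.9, 41.5 and 39.7 CPM.

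The vehicle and Helicon4 ranges overlapped at both doses. The difference from vehicle was 0.36 at 100 mpk (SE 0.12, limma adjusted p = 0.024) and 0.33 at 30 mpk (SE 0.12, adjusted p = 0.058). Against Helicon4neg it was 0.20 at the matched dose, with 95% limits of -0.043 and 0.45 (limma adjusted p = 0.29), and 0.23 at 100 mpk (adjusted p = 0.16). Without Helicon4neg replicate 2 these values were 0.089 (limma adjusted p = 0.55) and 0.12 (adjusted p = 0.32). The call at 100 mpk was lost without replicate 2 (adjusted p = 0.10) or replicate 4 (adjusted p = 0.062) of that group. With the length slope as a covariate the difference was 0.23 (adjusted p = 0.049), and blocking on the title code left 0.11 (adjusted p = 0.94). The difference of Helicon4neg from vehicle, 0.13 (adjusted p = 0.53), became 0.24 and passed (adjusted p = 0.028) when Helicon4neg replicate 2 was left out.

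LEF1 (ENSG00000138795, chr4:108047545-108168956, minus strand) encodes the family member known best from lymphocytes and is also a known Wnt target. Vehicle libraries held 228 to 302 CPM (median 279). Helicon4neg held 268 to 296 apart from replicate 2, at 183 CPM. Values were 246 to 292 at 30 mpk (median 279), and 268, 257, 286, 253 and 290 CPM at 100 mpk. LEF1 lay within the vehicle range in all 11 Helicon4 libraries. The low end of that range, 228 CPM, is vehicle replicate 6, which stands apart. In replicate 3 of Helicon4 at 30 mpk, at 246 CPM, LEF1 was lower than in every other vehicle library. Its difference from vehicle was -0.018 at 100 mpk (95% limits -0.20 and 0.16, limma adjusted p = 0.89) and 0.0057 at 30 mpk (95% limits -0.16 and 0.17), and it was called in none of the 6 comparisons.

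TCF7L1, whose product TCF-3 acts largely as a repressor, was detected at 0.374 to 1.37 CPM, or 21 to 58 reads (ENSG00000152284, chr2:85133410-85310388, plus strand). It reached 1 CPM in 6 libraries. Group means lay between 0.77 and 0.86 CPM, and its difference from vehicle at 100 mpk was -0.038 (95% limits -0.26 and 0.18). At this depth the data do not resolve a change of that size. With 0.1 added to the CPM in place of 1 the difference was -0.071 (SE 0.22, against 0.11 in the main fit). The limits above are thus narrow for a fold change.

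Set per length, LEF1 made up most of the family's signal. Its share of the summed CPM per kb of the 4 genes was 82.5% with vehicle and 81.8% at 100 mpk. The share of TCF7 was 7.36% ± 1.08 with vehicle (SD, n = 10), 7.24% ± 0.548 with Helicon4neg (SD, n = 8), 6.29% ± 0.721 at 30 mpk (SD, n = 6) and 5.06% ± 0.771 at 100 mpk (SD, n = 5). That of TCF7L2 was 9.80%, 10.9%, 12.2% and 12.9% in the same order. The ratio of TCF7 to TCF7L2 per kb was 0.551 to 0.937 in the vehicle libraries and 0.263 to 0.521 at 100 mpk, so these groups did not overlap, while at 30 mpk it was 0.410 to 0.638. The ratio combines the 2 members whose difference from vehicle was called in opposite directions, so it is a description and was given no test of its own. Over the summed TCF/LEF level, CTNNB1 stood at 0.636 ± 0.077 with vehicle (SD, n = 10) and 0.812 ± 0.051 at 100 mpk (SD, n = 5).

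**Figure D2:**
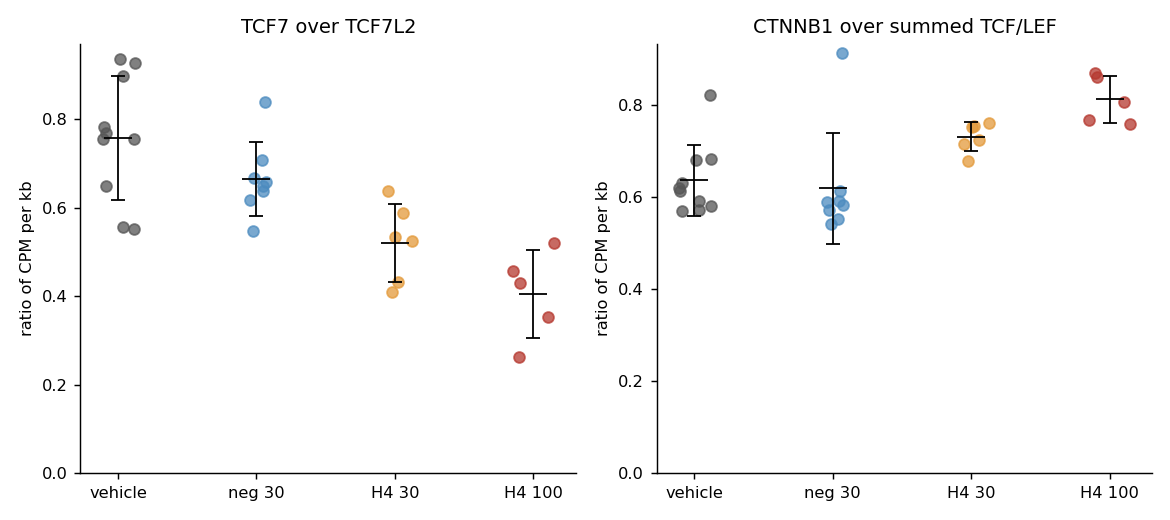
Ratio of CPM per kb (vertical axes, from 0) of TCF7 to TCF7L2 on the left and of CTNNB1 to the sum of the 4 TCF/LEF genes on the right, by group, with libraries as points and mean and SD as bars. TCF7 over TCF7L2 was at 0.521 or less in the 5 libraries at 100 mpk and at 0.551 or more with vehicle; on the right, the highest point, 0.911, is Helicon4neg replicate 2.

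The coactivators also differed among themselves. BCL9 was higher at 100 mpk than with vehicle, BCL9L had a larger difference that did not pass, and PYGO2 showed little difference. BCL9, which bridges β-catenin and PYGO proteins (ENSG00000116128, chr1:147541412-147626216, plus strand), ranged from 58.0 to 100.3 CPM with vehicle (median 84.3) and from 64.2 to 100.4 with Helicon4neg (median 88.0). It was at 86.8 to 109.7 CPM at 30 mpk (median 96.4), and at 91.3, 85.4, 106, 97.8 and 114 CPM at 100 mpk.

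These ranges overlapped in every comparison. The difference from vehicle was 0.33 at 100 mpk (SE 0.11, limma adjusted p = 0.029) and 0.31 at 30 mpk (SE 0.11, adjusted p = 0.060). The former was lost in a fit of only those 2 groups (adjusted p = 0.051). It was also lost without vehicle replicate 4 (adjusted p = 0.051) or replicate 3 (0.083), replicate 4 (0.052) or replicate 5 (0.095) of the 100 mpk group. With the length slope as a covariate it was 0.19 (adjusted p = 0.049), and blocking on the title code left -0.0089 (adjusted p = 0.99). Among the 3 Helicon4neg and 1 Helicon4 libraries that share a code, BCL9 was at 81.7 to 100.4 and at 106 CPM.

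BCL9L is a paralogue of BCL9 (ENSG00000186174, chr11:118893875-118925608, minus strand) and was far lower. Vehicle libraries held 1.66 to 8.73 CPM (median 6.17) and Helicon4neg libraries 0.842 to 10.6 (median 8.44). At 30 mpk it was at 6.60 to 13.0 CPM (median 10.4), and at 100 mpk at 8.90, 5.64, 10.5, 11.4 and 13.8. Both of the lowest values belong to the libraries that stand apart, vehicle replicate 6 and Helicon4neg replicate 2.

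The difference of BCL9L from vehicle was 0.72 at 100 mpk (SE 0.31, limma adjusted p = 0.075) and 0.76 at 30 mpk (SE 0.29, adjusted p = 0.093). The CV within groups was 24.6% to 42.4%. Without the 2 libraries that stand apart the differences were 0.58 (adjusted p = 0.010) and 0.62 (adjusted p = 0.010), both past the threshold. With the length slope as a covariate they were 0.29 (adjusted p = 0.20) and 0.30 (adjusted p = 0.23). The difference at 100 mpk passed in 4 of 11 settings other than the title code block.

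PYGO2, the reader of methylated histone H3 in this complex (ENSG00000163348, chr1:154957026-154963853, minus strand), ranged from 67.0 to 95.1 CPM with vehicle (median 79.1). With Helicon4neg 7 libraries held 66.7 to 83.3 CPM and replicate 2 held 108. It was at 76.3 to 92.7 CPM at 30 mpk, and at 94.0, 77.8, 81.5, 71.9 and 83.9 CPM at 100 mpk. The difference at 100 mpk from vehicle was 0.0078 (95% limits -0.19 and 0.21, limma adjusted p = 0.96), and PYGO2 was called in no comparison.

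Counted together, 4 of 8 members were called at 100 mpk against vehicle, where 30.2% of all genes were. Of these 3 were higher, against 14.3% of all genes, and 1 was lower, against 15.9%. At 30 mpk against vehicle 1 of 8 was called, CTNNB1, higher, against 11.1% of all genes (5.86% higher and 5.22% lower). At 30 mpk of Helicon4 against Helicon4neg at that dose it was again 1 of 8, CTNNB1, against 15.1% (7.78% higher and 7.31% lower). For the members not called at this matched dose, the 95% limits of the difference between the peptides were -0.13 and 0.22 for LEF1, -0.050 and 0.41 for BCL9, -0.067 and 1.18 for BCL9L, -0.041 and 0.35 for PYGO2 and -0.14 and 0.29 for TCF7L1, beside those given above for TCF7 and TCF7L2. Without Helicon4neg replicate 2 the difference of BCL9L at this dose went from 0.55 to 0.27. That of LEF1 went from 0.048 to -0.029 and that of BCL9 from 0.18 to 0.12. None of these 3 passed (limma adjusted p = 0.47, 0.82 and 0.49). For PYGO2, which was high in that library, the difference grew from 0.16 to 0.22. It passed in 0 of 14 fits that left out 1 library (smallest limma adjusted p = 0.062). At 100 mpk against Helicon4neg 2 of 8 were called, CTNNB1 higher and TCF7 lower, against 34.8% (17.0% higher and 17.7% lower). With 8 members, these counts cannot be read apart from the background.

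Between Helicon4neg and vehicle limma called 0 of 8 members, against 4.84% of all genes (2.21% higher and 2.62% lower). None had an unadjusted p under 0.05 in limma, where 2616 of all 13373 genes did. On whole reads recovered from the values edgeR and DESeq2 also called 0 members, where they called 673 and 1105 of all genes. Between 100 and 30 mpk limma, edgeR and DESeq2 each called 0 of 8, against 3.60% of all genes in limma (1.74% higher and 1.86% lower). There 1 member, TCF7, had an unadjusted p under 0.05 in limma, as did 2314 of all 13373 genes. In that comparison edgeR called 457 of all genes and DESeq2 750. The comparisons share libraries, so their counts are not independent of each other.

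**Figure D3:**
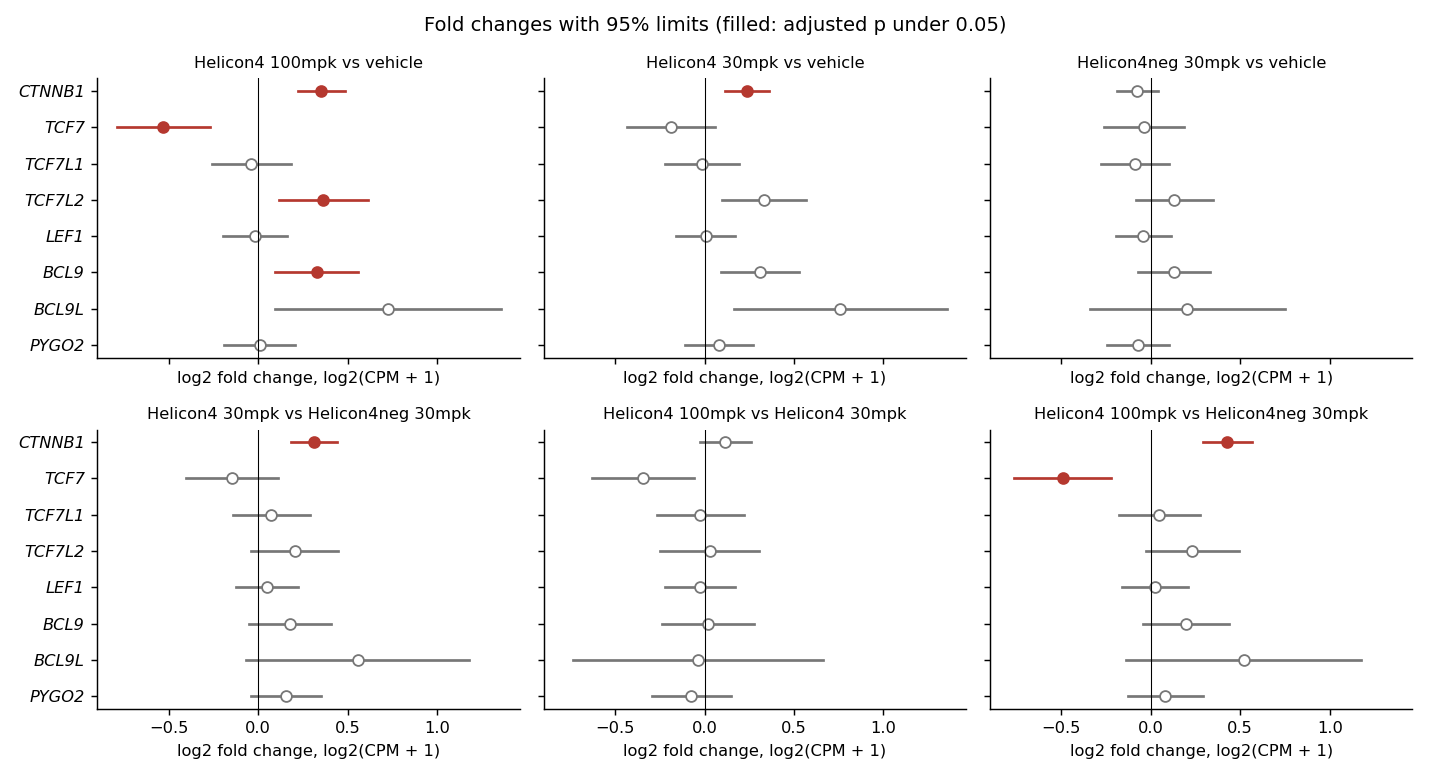
Log2 fold change of log2(CPM + 1) (horizontal axes) of the 8 genes in the 6 comparisons, with 95% limits from limma as lines. Filled red points passed an adjusted p of 0.05 over all genes: CTNNB1 in 4 comparisons, TCF7 in 2, and TCF7L2 and BCL9 in 1 each, while the limits of BCL9L are the widest.

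Levels were compared between genes as CPM per kb of the gene length given with the values. The mean order was LEF1 (50.8), CTNNB1 (42.0), PYGO2 (22.5), BCL9 (13.8), TCF7L2 (6.93), TCF7 (4.17), BCL9L (0.753) and TCF7L1 (0.187). LEF1 lay above CTNNB1 in 24 of 29 libraries, with a median ratio of 1.21, so these neighbours were not separated in every library. CTNNB1 was the higher of the 2 in 3 of 5 libraries at 100 mpk, 0 of 6 at 30 mpk, 1 of 8 with Helicon4neg and 1 of 10 with vehicle, and at 100 mpk their means were 50.04 and 50.5. Each of the other neighbours kept its order in 29 of 29 libraries, except that BCL9L fell below TCF7L1 in 1, Helicon4neg replicate 2. The length matters for CTNNB1: the table gives 6614 bases, while the exons of GENCODE 29 cover 11927, with which its mean would be 23.3 CPM per kb, next to PYGO2. For TCF7L2 the lengths are 4935 and 6736 bases, and for the other 6 genes they are equal.

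**Figure D4:**
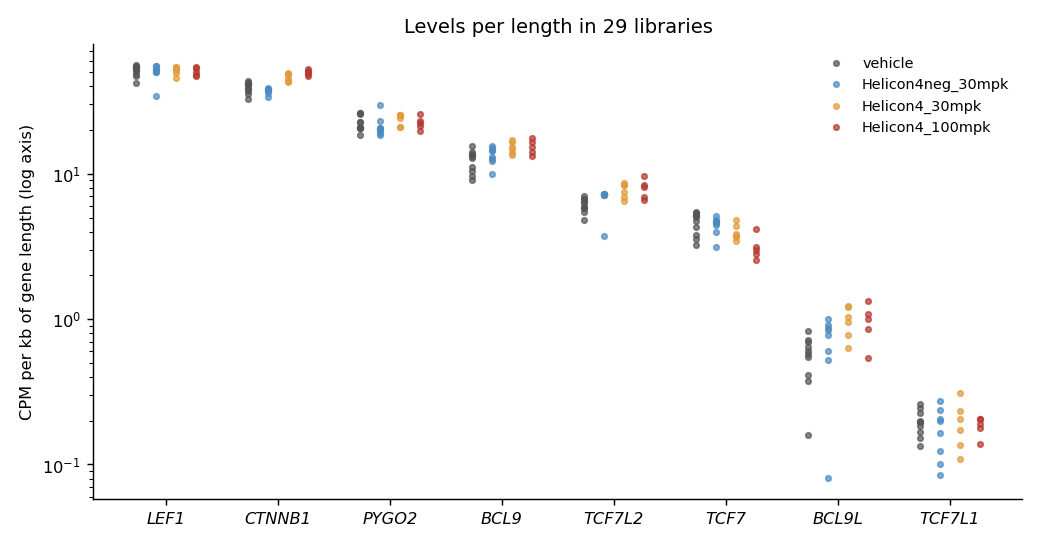
CPM per kb of gene length (vertical log axis) of the 8 genes, ordered by their mean, with each library as a point and the 4 groups side by side in colour. Levels span from about 50.8 for LEF1 to 0.187 for TCF7L1 on average, and the single low point of BCL9L is Helicon4neg replicate 2.

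Some reads could be shared with neighbouring genes. In GENCODE 29, 37.5% of the exon bases of BCL9L overlap exons of CXCR5 on the opposite strand. PYGO2 shares 9.23% of its exon bases with SHC1 on the same strand and 4.10% with an opposite-strand gene. LEF1 shares 5.20% with LEF1-AS1, TCF7L2 4.45% with AL158212.2 and TCF7 2.09% with SKP1, all on the opposite strand. CTNNB1, BCL9 and TCF7L1 share none. The labels name a stranded kit but not whether strand was used in counting, so the values of the overlapping genes are uncertain to that extent.

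Across the 29 libraries, the closest followers of each member were taken by Pearson's r of log2(CPM + 1) among genes of at least 5 CPM. These r describe libraries that share treatment, depth and preparation. The gene most like CTNNB1 was PRUNE1, a phosphodiesterase (r = 0.91, and 0.83 in deviations from the group means), then APPBP2 (0.88 and 0.56) and SLC44A3 (0.88 and 0.63). TCF7 was most like DNMT1, the maintenance DNA methyltransferase (0.95 and 0.92), then ORC1, a subunit of the origin recognition complex (0.90 and 0.88), and CLPB (0.89 and 0.86). Much of the likeness of TCF7 to these genes was thus present within groups, where treatment does not differ.

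TCF7L2 was most like KLHL24 (r = 0.91), KLF9 (0.89) and MEIS2 (0.89). BCL9 was most like PPARA, a nuclear receptor (0.94), ADAR, an RNA-editing enzyme (0.94), and ZNF618 (0.94). BCL9L was most like CREBBP, a histone acetyltransferase (0.95), RGP1 (0.94) and BAZ2A (0.94). For PYGO2 the genes were INTS5 (0.91), MEPCE (0.91) and CDIP1 (0.89), and for TCF7L1, at its low counts, GDPD5 (0.70), SNHG20 (0.69) and ASB16-AS1 (0.66). LEF1 was most like EIF3L (0.87), SLC25A12 (0.86) and M6PR (0.85), but without the 2 libraries that stand apart these became 0.50, 0.59 and 0.40.

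Among the members themselves, BCL9 and BCL9L had the highest r (0.83, and 0.77 in deviations from the group means). TCF7 and BCL9 had an r of 0.24 over all libraries and 0.88 in deviations: within a group, libraries with more BCL9 had more TCF7, although the group means of the 2 genes went opposite ways at 100 mpk. Both were low, for instance, in vehicle replicate 4 (TCF7 35.8 and BCL9 58.0 CPM) and high in vehicle replicate 10 (54.1 and 100.3 CPM). The length slope also varied among these libraries: it was -0.135 in vehicle replicate 4, -0.132 in vehicle replicate 8 (TCF7 43.5 and BCL9 67.4 CPM), -0.186 in vehicle replicate 6 (TCF7 32.3 and BCL9 61.5 CPM), -0.321 in Helicon4neg replicate 2 (31.7 and 64.2 CPM) and 0.037 in vehicle replicate 10, and its part in the r was not tested. Without the 2 libraries that stand apart the r over all libraries was 0.079.

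The partners of the complex were described from lists of known genes, written with results of these data known, so that their counts are descriptions. The counts at 100 mpk stand against 14.3% of all genes called higher and 15.9% called lower, and those at 30 mpk against 5.86% and 5.22%. Of 16 measured corepressors and inhibitors of the complex, 4 rose and 1 fell at 100 mpk against vehicle, with a median log2 difference of 0.17 against 0.0051 over all genes; 14.3% and 15.9% of all genes did so. HIC1, a repressor that can sequester TCF-4, rose by 0.73 (SE 0.077, limma adjusted p = 1.0e-08), from 0.631 to 1.71 CPM on average. CTBP2, a corepressor, rose by 0.39 and NLK, a kinase that phosphorylates TCF/LEF proteins, by 0.31. TLE1, a Groucho-type corepressor that binds TCF/LEF proteins directly, fell by 0.21 (SE 0.072, limma adjusted p = 0.028). At 30 mpk 2 of the 16 rose.

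Of 24 other coactivators and chromatin partners of β-catenin, 5 rose and 6 fell at 100 mpk (median 0.15), where 14.3% and 15.9% of all genes did. SSBP3, SSBP2 and LDB1, which belong to the ChiLS/LDB complex that joins BCL9 and Pygo, rose by 0.86, 1.13 and 0.46 (limma adjusted p = 2.4e-10, 4.1e-08 and 9.6e-04). At 30 mpk they rose by 0.48, 0.54 and 0.42. SSBP3 and SSBP2 also differed from Helicon4neg at that dose, by 0.39 and 0.51 (limma adjusted p = 3.5e-04 and 0.0051). For LDB1 that difference was 0.14 (adjusted p = 0.38), and Helicon4neg itself stood 0.28 above vehicle (adjusted p = 0.063). TERT, the catalytic subunit of telomerase, fell by 0.86 at 100 mpk, and the ATPases RUVBL2 and RUVBL1 by 0.62 and 0.37. At 30 mpk 5 of the 24 rose.

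Of 8 measured catenins and cadherins other than CTNNB1, 5 rose and 1 fell at 100 mpk (median 0.31), where 14.3% and 15.9% of all genes did, and 2 rose and 1 fell at 30 mpk. JUP, or γ-catenin, the closest relative of β-catenin, rose from 53.9 ± 9.96 CPM with vehicle (SD, n = 10) to 90.8 ± 12.7 at 30 mpk (SD, n = 6) and 103 ± 19.6 at 100 mpk (SD, n = 5). Its log2 difference at 100 mpk was 0.93 (SE 0.13, limma adjusted p = 2.2e-06). CTNND1, or p120-catenin, rose by 0.34 and CTNNA2, an α-catenin, by 0.48. PKP4, of the p120 family, fell by 1.47, from 531 to 192 CPM (limma adjusted p = 2.5e-12). At 100 mpk against vehicle, higher CTNNB1 was thus accompanied by higher transcripts of 3 other named catenins and lower PKP4. At 30 mpk against Helicon4neg 1 of the 8 rose and 3 fell, where 7.78% and 7.31% of all genes did. JUP differed there by 0.46 and PKP4 by -0.37 (limma adjusted p = 0.013 for each). CTNND1 (0.13, limma adjusted p = 0.21) and CTNNA2 (0.15, adjusted p = 0.36) did not pass there.

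In the list of 17 components of the destruction complex and of β-catenin turnover, 4 rose and 1 fell at 100 mpk (median 0.14), where 14.3% and 15.9% of all genes did. At 30 mpk against vehicle 0 of the 17 were called by limma, edgeR or DESeq2, which called 1481, 1514 and 1865 of all genes. Of the 17, 2 had an unadjusted p under 0.05 in limma, where 3401 of all 13373 genes did. PPP2R5A rose by 0.38, BTRC, the ubiquitin ligase subunit that recognises phosphorylated β-catenin, by 0.30, and APC by 0.58. AXIN1, the scaffold, fell by 0.44 (limma adjusted p = 0.0025). Targets of the pathway were mostly lower: 16 of 23 measured fell at 100 mpk against vehicle while 3 rose (median -0.57), and at 30 mpk the numbers were 10 and 2. The antagonists DKK4, NKD1 and DKK1 fell by 4.88, 1.94 and 2.64 at 100 mpk, while EPHB3, SOX4 and ID2 rose by 1.67, 0.95 and 0.65. DKK4 went from a mean of 32.5 CPM with vehicle to 0.053 at 100 mpk, so the added 1 understates its fold. With Helicon4neg against vehicle 1 of the 23 rose, where 2.21% of all genes did. When the title code was a block, 141 of all 13373 genes were called at 100 mpk against vehicle, in either direction. Of the 23 targets 5 were then called lower and 1 higher, and the catenins and cadherins gave 1 call in each direction. In that fit limma called 0 of the corepressors, coactivators and destruction complex genes, of which 2, 1 and 0 had an unadjusted p under 0.05. Without the block edgeR called 5, 10 and 5 of them and DESeq2 6, 11 and 5, where they called 4047 and 4438 of all genes.

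Genes used as markers of other cells moved with treatment too. The xenografts derive from a single human line, and how mouse reads were handled is not given. Transcripts of the tumor cells, reads from mouse cells, fewer cells of a type and less RNA per cell cannot be told apart here. At 100 mpk against vehicle 14.3% of all genes were called higher and 15.9% lower. Of 4 measured leukocyte markers out of 14 listed, 3 were lower at 100 mpk than with vehicle, CD8A by -0.66, CTSS by -0.77 and CD4 by -0.51. PTPRC, the pan-leukocyte marker and the most abundant of the 4 (mean 21.8 CPM), differed by 0.21 (95% limits -0.28 and 0.71, limma adjusted p = 0.53). With Helicon4neg CD8A was also lower than with vehicle, by -0.28 (adjusted p = 0.0049), while CD4 was higher by 0.40 (adjusted p = 0.020). The 4 markers' summed level was 45.4 to 61.0 CPM with vehicle and 40.2 to 49.04 at 100 mpk. T cells express TCF7 and LEF1 strongly, and the T cell genes CD3D, CD3E, CD3G, CD2 and LCK were not analysed here. Of 6 measured fibroblast markers out of 12 listed 3 fell (BGN -1.94, MMP2 -1.13 and PDGFRB -0.29) and 2 rose (PDGFRA 1.13 and COL1A1 0.77). Their summed level was 179.8 to 275 CPM with vehicle and 104 to 166 at 100 mpk. Of 4 measured endothelial markers out of 10 listed 3 fell, CLDN5, ERG and EGFL7. The sum of the 4 was 146 to 205 CPM with vehicle and 106 to 154 at 100 mpk. With vehicle MMP2 averaged 156 CPM and ERG 117, so each sum mostly follows 1 gene. The part of cells other than the tumor line in the fall of TCF7 was not tested. The colorectal epithelial markers KRT8, KRT18 and EPCAM averaged 176, 111 and 28.9 CPM over all libraries. Of 7 such markers measured out of 10 listed 2 rose, GPA33 by 1.52 and KRT20 by 0.73, and CDX2 fell by 0.59.

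The plot of settings gives the differences at 100 mpk against vehicle under each way of processing. CTNNB1 stayed between 0.34 and 0.38 in 11 settings other than the title code block and between 0.33 and 0.37 in 15 fits that left out a library, with the call made in all of them. TCF7 stayed between -0.67 and -0.48 in the former and between -0.64 and -0.46 in the latter, also called in all. The mean length slope was -0.040 with vehicle and 0.039 at 100 mpk, and with it as a covariate TCF7 was at -0.67 and CTNNB1 at 0.34.

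**Figure D5:**
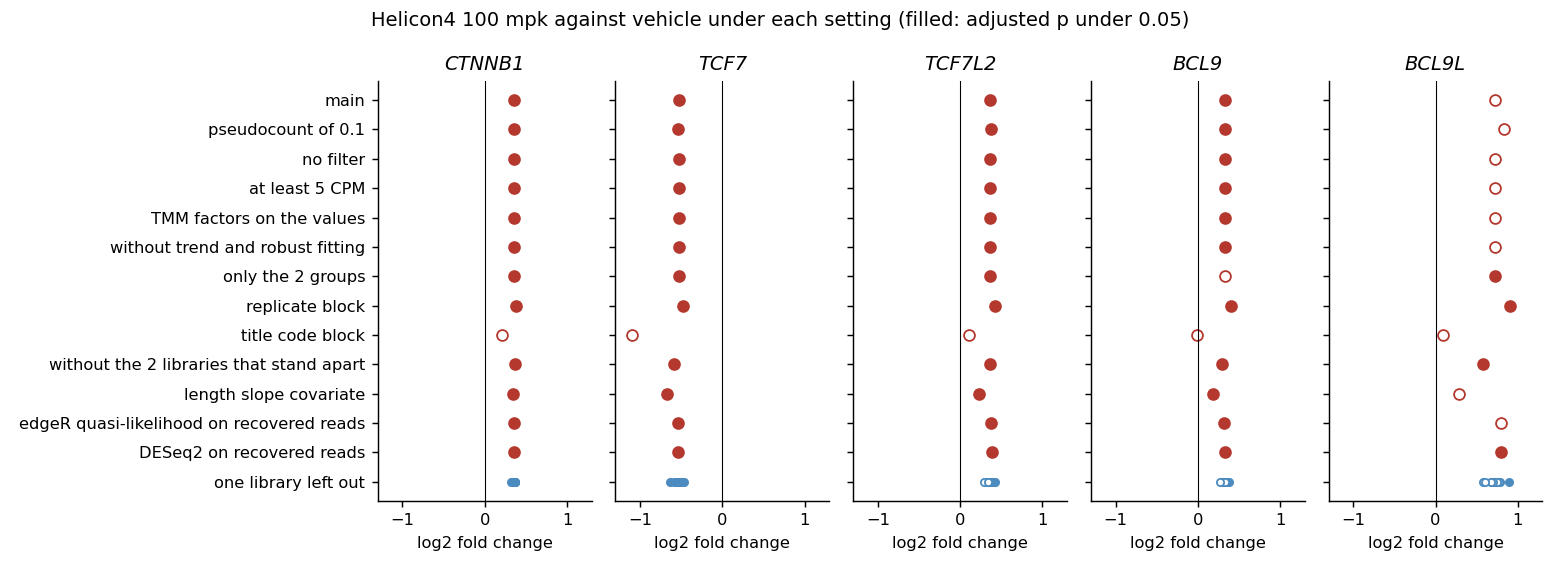
Log2 fold change of 5 members between Helicon4 at 100 mpk and vehicle (horizontal axes) under the main and 12 other settings and in 15 fits that each leave out 1 library (lowest line, blue). Filled points passed an adjusted p of 0.05 over all genes: CTNNB1 and TCF7 passed in all but the title code block, and BCL9L in 4 of the other settings.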

How the data were processed

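Polyadenylated RNA of xenograft tumors was sequenced in 29 libraries. The labels name 2 kits, NEBNext Ultra II Directional and TruSeq stranded mRNA, without saying how both were used. Per the submitters' processing notes, reads were processed with Trimmomatic (0.39), STAR (2.7.7a), Subread (2.4.2) with its featureCounts program, and edgeR (4.0.2), on GRCh38; their settings, the annotation and the treatment of mouse reads are not given in the sources used here. The authors deposited a normalised signal per gene, named CPM. Its columns sum to 0.921 to 1.26 M, as CPM scaled by an effective library size would, a step that the labels do not describe. Within 0.05 reads, 100% of these values were whole multiples of what 1 read is worth in each library, which gave the depths.

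The test was limma 3.58.1 in R 4.3.3, with a trend and robust fitting, on log2 values after a pseudocount of 1 was added; it was first tested on simulated data. A gene needed 1 CPM or more in 5 or more libraries. edgeR 4.0.16 and DESeq2 1.42.0 on the recovered reads were alternatives, beside others named in the closing section. The members and gene lists were chosen with earlier results of these data known. Named genes are the 8 members, from each list up to 3 called genes a direction with the smallest adjusted p at 100 mpk against vehicle, and the 3 genes most like each member by r. The length slope is the slope of a library's log2 values, each gene centred over libraries, on log2 gene length. Libraries with the same replicate number did not deviate together (35 pairs, r from -0.70 to 0.52, 15 above 0.1), so the number was not treated as a pairing.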

Additional observations from a re-analysis of the deposited data

Results flagged for a closer look

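In 5 of 32 combinations of gene and group tested, 1 library lay far from the others of its group by Dixon's test, which chance gives in about 1 in 20. In Helicon4neg replicate 2 TCF7L2 was at 18.5 CPM against 35.2 in the next lowest library, LEF1 at 183 against 268, BCL9L at 0.842 against 5.44, and PYGO2 was at 108 against 83.3 in the next highest. In vehicle replicate 6 BCL9L was at 1.66 CPM against 3.93 in the next lowest. These libraries have the lowest length slopes of the 29, and the part of that in the 5 values was not tested.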

How the results depend on the processing

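Over 48 differences (8 genes in 6 comparisons), 522 values under settings other than the title code block lost 1 call, gained 18 and reversed 0, and 696 values with 1 library left out lost 6, gained 6 and reversed 0. Blocking on the title code, the genes called numbered 141 (100 mpk against vehicle), 74 (30 mpk against vehicle), 2 (Helicon4neg against vehicle), 184 (30 mpk against Helicon4neg), 10 (100 against 30 mpk) and 189 (100 mpk against Helicon4neg), no member was called in any of them, and BCL9 turned to -0.0089 at 100 mpk against vehicle. CTNNB1 at 100 mpk against Helicon4neg was then 0.38 (limma adjusted p = 0.62). The block raised the SE of the members, by 1.76 to 3.30 times in the median, so a lost call alone is no measure of a smaller difference. Estimates moved too: at 100 mpk against vehicle CTNNB1 went from 0.35 to 0.21, TCF7L2 from 0.36 to 0.11 and TCF7 from -0.53 to -1.10. That fit links vehicle to Helicon4 only through codes shared with Helicon4neg, which hold 2 vehicle libraries in one and 1 Helicon4 library in the other. The cause of the moves was not tested.

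At 30 mpk against vehicle the main analysis called 1 member and 1481 of all 13373 genes. A fit of only those 2 groups called 3 members (1768 genes) and a replicate block 3 (1519 genes). Without the 2 libraries that stand apart 4 members were called (2198 genes), and with the length slope 2, TCF7 beside CTNNB1 (2249 genes). With edgeR the count was 2 (1514 genes) and with DESeq2 4 (1865 genes). Helicon4neg against vehicle gave 1 member without the 2 libraries apart (TCF7L2, beside 2031 genes). The comparison of 100 with 30 mpk gave 1 with the length slope (TCF7, -0.34, beside 2000 genes). The replicate block, whose numbers do not pair the libraries (0 of 27 correlate best with their own number), raised BCL9 at 30 mpk against vehicle to 0.39 and BCL9L to 0.99. With 1 library left out, members called at 100 mpk against vehicle ran from 2 (without replicate 4 of 100 mpk) to 4. At 30 mpk against vehicle they ran from 1 to 3 (2 without vehicle replicate 7 or replicate 2 of 30 mpk, 3 without vehicle replicate 10). For Helicon4neg against vehicle they ran from 0 to 1 (without Helicon4neg replicate 2). All genes called in these fits ran from 2964 to 4381, 986 to 1623 and 393 to 2595, in the same order.

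Genes called moved by over 1.5 times as follows, the cause not tested. At 30 mpk against vehicle, 1481 became 2249 with the length slope, and 986 (without replicate 1 of 30 mpk) to 1623 with 1 library left out. For Helicon4neg against vehicle, 647 became 374 with only the 2 groups, 2031 without the 2 libraries apart, 2383 with the length slope, 1105 in DESeq2, and 393 (without Helicon4neg replicate 4) to 2595 (without replicate 2) with 1 left out. At 30 mpk against Helicon4neg, 2018 became 3440 with the length slope. For 100 against 30 mpk, 482 became 1052 without the 2 libraries apart, 2000 with the length slope, 750 in DESeq2, and 209 (without replicate 2 of 100 mpk) to 704 with 1 left out, with 281, 253 and 252 without replicates 2 and 4 of 30 mpk and replicate 3 of 100 mpk. TCF7L1 has no value under the filter of 5 CPM. Rescaling by TMM moved the median of all genes by at most 0.00145. Depth limits TCF7L1 and, in the library with 18 reads, BCL9L.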
